A study of Homo sapiens with 4 samples.

Results

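The genes EZH2, EZH1, SUZ12, EED, BMI1, CBX2, CBX6, CBX7 and CBX8, which encode subunits of the Polycomb repressive complexes, were followed in single-cell RNA-seq data of 2 human cancer lines. They were chosen by name as 9 of the 40877 single gene names in the deposited gene table, and all 9 had counts in each library. H1299 is a non-small cell lung cancer line and HCT116 a colorectal cancer line, both at passage 5 to 10. Control cells of each line received the solvent DMSO, and treated cells received 500 nM DAC for 72 h together with 500 nM SB939 for 18 h, the medium with compounds being renewed every 24 h. DAC is decitabine, which inhibits DNA methyltransferases, and SB939 inhibits histone deacetylases. The treated libraries are called DAC+SB. Polyadenylated RNA was captured with the 10x Genomics 5′ assay, in 1 library per combination of line and treatment. No group had a replicate, so no test was made, and every interval given here is a 95% interval for counting error only. It says nothing of variation between cultures or captures.

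Polycomb group proteins keep developmental genes silent through 2 complexes. Polycomb repressive complex 2 (PRC2) places methyl groups on lysine 27 of histone H3 through EZH2 or its relative EZH1, and needs SUZ12 and EED to be active. Polycomb repressive complex 1 (PRC1) places ubiquitin on histone H2A. In its canonical form it holds a PCGF protein, of which BMI1 is one, and a CBX protein such as CBX2, CBX6, CBX7 or CBX8, whose chromodomain binds the methylated lysine. EZH2 is known as the form of dividing cells and EZH1 as the form that is kept in resting cells.

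DAC inhibits DNA methyltransferases, which act on CG dinucleotides. The bases just upstream of 4 of the genes are therefore shown, with each CG in capitals. Methylation was not measured in these data. The sequences are from RefSeq on GRCh38.p14, run 5′ to 3′ on the strand of the gene, and were limited to bases outside the gene body of GENCODE v29. EZH2, the PRC2 enzyme of dividing cells, is on the minus strand (chr7:148884322-148884541).
EZH2: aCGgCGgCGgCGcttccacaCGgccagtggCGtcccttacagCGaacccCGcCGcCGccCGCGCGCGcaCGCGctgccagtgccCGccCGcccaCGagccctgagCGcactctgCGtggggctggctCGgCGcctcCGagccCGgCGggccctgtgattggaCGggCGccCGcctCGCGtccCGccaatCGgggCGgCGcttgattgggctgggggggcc
SUZ12, a PRC2 subunit, is on the plus strand (chr17:31936757-31937006).
SUZ12: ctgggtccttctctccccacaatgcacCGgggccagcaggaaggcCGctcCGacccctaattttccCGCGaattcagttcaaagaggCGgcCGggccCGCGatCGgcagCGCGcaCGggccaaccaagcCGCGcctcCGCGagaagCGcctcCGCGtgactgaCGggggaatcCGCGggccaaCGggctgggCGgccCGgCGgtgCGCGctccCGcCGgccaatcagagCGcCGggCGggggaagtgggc
BMI1, a PCGF subunit of PRC1, is on the plus strand (chr10:22320849-22321098) and is shown because its deposited features diverged with treatment.
BMI1: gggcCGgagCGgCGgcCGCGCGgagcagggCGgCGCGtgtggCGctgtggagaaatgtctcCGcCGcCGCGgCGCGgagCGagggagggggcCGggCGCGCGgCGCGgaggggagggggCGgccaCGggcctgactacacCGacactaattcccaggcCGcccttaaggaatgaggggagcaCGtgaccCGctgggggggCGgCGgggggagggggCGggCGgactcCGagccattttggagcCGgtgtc
CBX7, a PRC1 reader subunit, is on the minus strand (chr22:39152681-39152930) and is shown because it had the largest mean absolute log2 ratio of the 9 genes.
CBX7: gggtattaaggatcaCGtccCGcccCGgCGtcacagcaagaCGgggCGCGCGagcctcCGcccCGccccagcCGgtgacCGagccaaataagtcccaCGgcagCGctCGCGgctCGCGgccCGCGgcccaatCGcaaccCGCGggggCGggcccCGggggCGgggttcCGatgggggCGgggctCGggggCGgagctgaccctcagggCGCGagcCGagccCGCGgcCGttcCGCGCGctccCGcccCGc
These stretches held 35, 34, 35 and 41 CG in 220, 250, 250 and 250 bases. Over all 35116 RefSeq windows of 250 bases upstream of a start, the median was 11 CG (interquartile range 3 to 23). Of the 9 genes 7 matched the table, with 9 windows, and their counts of CG per 250 bases ran from 11 for EED to 54 for the second BMI1 entry. These windows were not limited to bases outside the gene body. That of EED lay mostly and that of the second BMI1 entry wholly inside it. E2F factors activate genes of cell division, and a core motif of 7 letters was searched on both strands as TTNNCGC, where each N is C or G. It was found in 2 of the 9 windows, once each for SUZ12 and EZH1, and in 10.9% of all windows. A match describes letters, not a bound site.

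The 4 libraries held between 3578 and 4327 cells and between 38927267 and 64524196 counts. The HCT116 DAC+SB library was the shallowest, with a median of 8449 counts per cell against 15784.5 to 17369.5 in the other libraries, and 1086 of its 4327 cells had over 25% mitochondrial counts against 88 to 364 cells elsewhere. Between 60 and 71 barcodes of each library were shared with another library. A list of 10 genes for each line was set against the labels. The H1299 list summed to 2955 and 1447 CPM (counts per 1000000 gene and transposable element counts of the library) in H1299 DMSO and H1299 DAC+SB, against 260.4 and 359 in the HCT116 libraries. The HCT116 list summed to 0.511 and 57.1 CPM in H1299 and to 330 and 366 CPM in HCT116, with CDH1 at 0 in H1299 DMSO and CEACAM6 at 0 in both DMSO libraries. CDKN2A, listed as lost in H1299, had 382 CPM in H1299 DMSO, so this gene is no check of the labels. Fewer cells with a transcript and fewer transcripts per cell cannot be told apart in the summed values.

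With DAC+SB, 7 of the 9 genes were lower in H1299, beside 54.1% of all genes tested, and 8 in HCT116, beside 59.4%, and CBX8 was higher in both lines. BMI1 in H1299 and CBX2 in HCT116, counted here as lower, were within counting error of no change. The median log2 ratio of DAC+SB over DMSO of the 9 genes was -0.34 in H1299 and -0.72 in HCT116. Over all 14610 and 13539 genes tested it was -0.07 and -0.23. Scaling with TMM factors moved the median over all genes in HCT116 to 0.02, and that of the 9 genes to -0.48, with EZH2 at -0.43 and BMI1 at -0.48. A gene was tested where its higher library held at least 100 counts, and all 9 passed in both lines. All 9 also reached 100 counts with DMSO. The shares and medians of all genes include genes that reached it only with DAC+SB, and those had to be higher. These shares and medians are therefore not matched to the 9 genes. In H1299, CBX2 rose by at least 2-fold, 1 of 9, where 18.3% of all genes were that much higher. None of the 9 fell by 2-fold in H1299, where 7.34% of all genes did. None of the 9 reached 2-fold in HCT116 in either direction, where 16.2% of all genes were higher and 20.0% lower. At 1.5-fold, CBX2 and CBX8 were higher in H1299 and CBX6 and CBX7 lower, 2 of 9 each way beside 24.9% and 21.3% of all genes. In HCT116 CBX8 was 1.5-fold higher, 1 of 9 beside 22.7%, and 6 of 9 were 1.5-fold lower beside 35.2% of all genes. Those 6 were EZH2, EZH1, SUZ12, BMI1, CBX6 and CBX7.

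**Figure D1:**
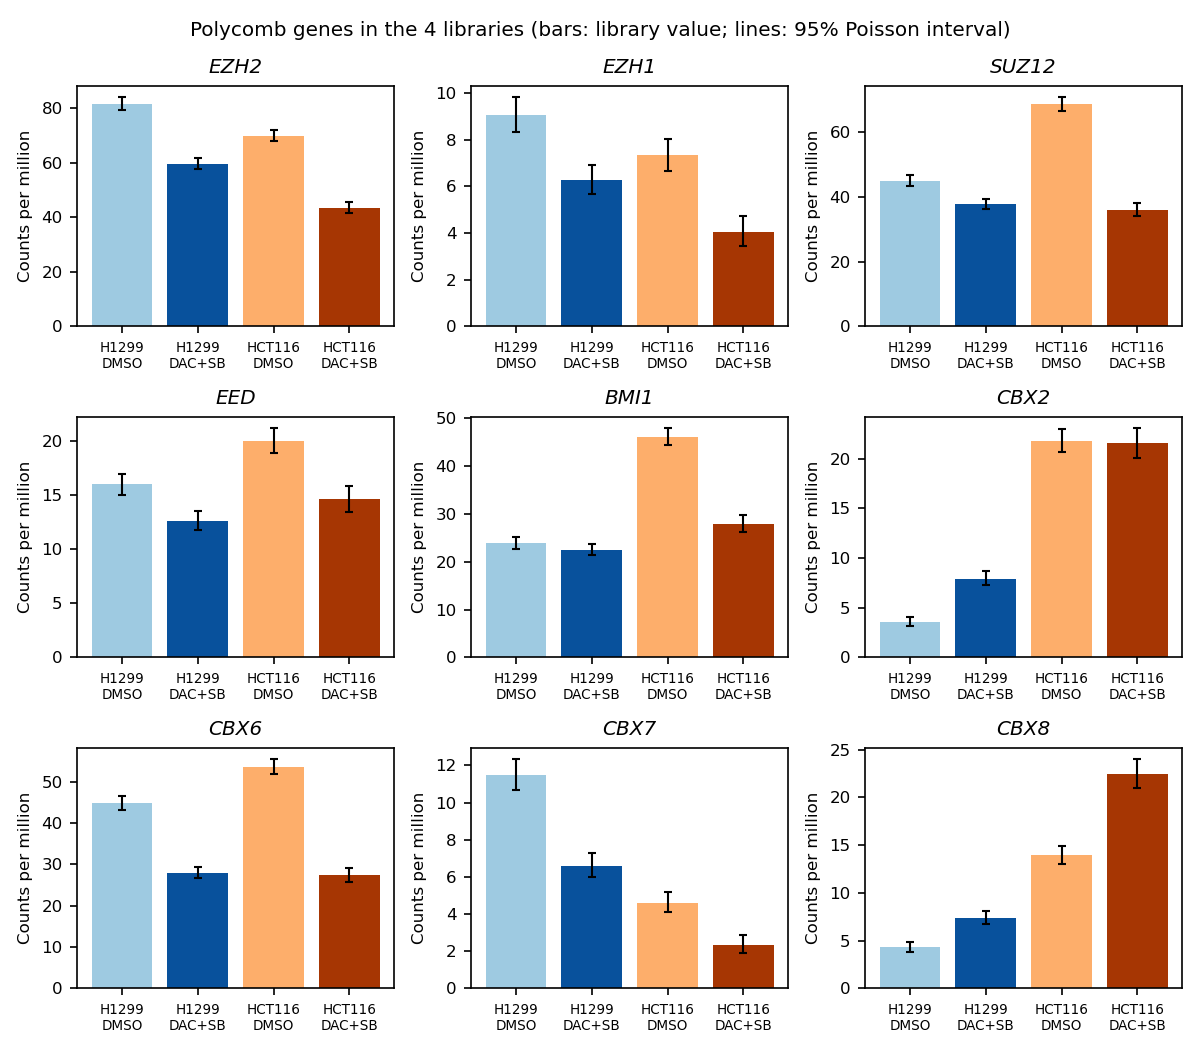
Level of each gene (vertical axis, CPM) in the 4 libraries, with bars for the library value and lines for the 95% Poisson interval. EZH2, EZH1, SUZ12, CBX6 and CBX7 stand lower with DAC+SB in both lines, while CBX8 stands higher in both.

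EZH2, the catalytic subunit of most PRC2 in dividing cells, had 5268 counts in H1299 DMSO and 3719 after treatment, and 4372 and 1695 in HCT116. That was 81.6 CPM (79.5 to 83.9) in H1299 DMSO and 59.6 CPM (57.7 to 61.5) after treatment. The HCT116 values were 69.8 CPM (67.7 to 71.9) and 43.5 CPM (41.5 to 45.7). The 2 DMSO libraries were thus the highest and both DAC+SB libraries the lowest, with no overlap of counting intervals. The log2 ratio of DAC+SB over DMSO was -0.45 (-0.52 to -0.39) in H1299 and -0.68 (-0.76 to -0.60) in HCT116. With TMM factors the EZH2 ratio was -0.39 in H1299 and -0.43 in HCT116. After thinning each cell to 3300 counts EZH2 was -0.33 in H1299. Its relative EZH1 followed the same order of libraries at a lower count, with 584, 391, 459 and 157 counts, or 9.05 and 6.26 CPM in H1299 and 7.33 and 4.03 CPM in HCT116. Its log2 ratios were -0.53 (-0.72 to -0.34) and -0.86 (-1.13 to -0.60). Of neighbouring EZH1 levels, those of HCT116 DMSO and H1299 DAC+SB overlapped within counting error. The share of EZH1 in the summed counts of both enzymes was 9.98% (9.22 to 10.8) and 9.51% (8.63 to 10.5) in H1299 and 9.50% (8.69 to 10.4) and 8.48% (7.25 to 9.84) in HCT116, DMSO first. The intervals of these shares overlap within each line, so a shift from one enzyme to the other was not detectable at this depth.

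SUZ12, the scaffold on which PRC2 assembles, was 44.9 CPM (43.3 to 46.6) in H1299 DMSO and 37.6 CPM (36.1 to 39.1) in H1299 DAC+SB. It was 68.6 CPM (66.5 to 70.6) in HCT116 DMSO and 36.0 CPM (34.2 to 38.0) in HCT116 DAC+SB. The HCT116 DMSO library stood above the other libraries, and both DAC+SB libraries had overlapping intervals. The log2 ratio was -0.26 (-0.34 to -0.18) in H1299 and -0.93 (-1.02 to -0.84) in HCT116, a difference between the lines of 0.67 (0.55 to 0.79). A feature of SUZ12 with a number after its name was listed in the HCT116 libraries only, with 1128 and 311 counts. Without numbered features the HCT116 log2 ratio was -0.85. The DAC+SB libraries then differed, with a log2 ratio of H1299 over HCT116 of 0.42 (0.32 to 0.53). The near-identical pseudogene name SUZ12P had 573, 430, 799 and 199 counts in the 4 libraries, and how reads were divided between both names is not stated in the labels or files. EED, which binds the methylated lysine and stimulates the enzyme, was 16.0 CPM in H1299 DMSO and 12.6 CPM after treatment, against 20.0 and 14.6 CPM for HCT116. Its log2 ratio was -0.34 (-0.48 to -0.21) in H1299 and -0.46 (-0.60 to -0.31) in HCT116, where it was -0.21 with TMM factors and -0.16 after thinning each cell to 3300 counts. Over features listed in both H1299 libraries that ratio was -0.13, with an interval of -0.28 to 0.01, because 139 EED counts lay in a numbered feature listed in H1299 DMSO only.

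BMI1, the PCGF subunit known for repressing CDKN2A, differed most in how its counts were listed. In H1299 it had 1544 counts with DMSO and 1407 with DAC+SB, or 23.9 CPM (22.8 to 25.2) and 22.5 CPM (21.4 to 23.7), and its log2 ratio was -0.09 (-0.19 to 0.02). In HCT116 it had 2891 and 1088 counts, or 46.2 CPM (44.5 to 47.9) and 27.9 CPM (26.3 to 29.7), with a log2 ratio of -0.72 (-0.83 to -0.62). HCT116 DMSO was the highest library, and both H1299 libraries overlapped within counting error. In HCT116 the feature of BMI1 without a number fell from 2154 to 488 counts (log2 ratio -1.46, -1.60 to -1.31), while the numbered feature had 737 and 600 counts (log2 ratio 0.39, 0.23 to 0.55). In H1299 the feature without a number had 1544 and 974 counts (log2 ratio -0.62, -0.73 to -0.50), and the numbered feature was listed in DAC+SB only, with 433 counts. The numbered feature thus made up a larger part of BMI1 counts with DAC+SB than with DMSO in HCT116, and in H1299 it appeared in the list with DAC+SB only. The counts of a joined name of BMI1 and the readthrough gene COMMD3-BMI1, which were left out of the sums, were 338 and 309 in the H1299 libraries and 634 and 176 in those of HCT116. The neighbour COMMD3 by itself had 221, 200, 173 and 84 counts in the 4 libraries.

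What the number stands for is not stated in the labels or files. Of the 8 numbered features of the 9 genes 3 were listed in all 4 libraries, those of EZH2, EZH1 and CBX8, and no numbered feature was listed with fewer than 10 counts in any library. An unlisted feature is therefore not known to be at 0, and whether its counts lie in the feature without a number is not given either. Of the 9 genes, the values of BMI1, CBX2, EED and SUZ12 depend on this. In EZH2, where both features were listed throughout, the feature without a number had log2 ratios of -0.50 and -0.80 in H1299 and HCT116, and the numbered feature -0.32 and -0.39. Both features of EZH2 were thus lower with DAC+SB in both lines, as were both features of EZH1, at -0.54 and -0.52 in H1299 and at -0.96 and -0.73 in HCT116.

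**Figure D2:**
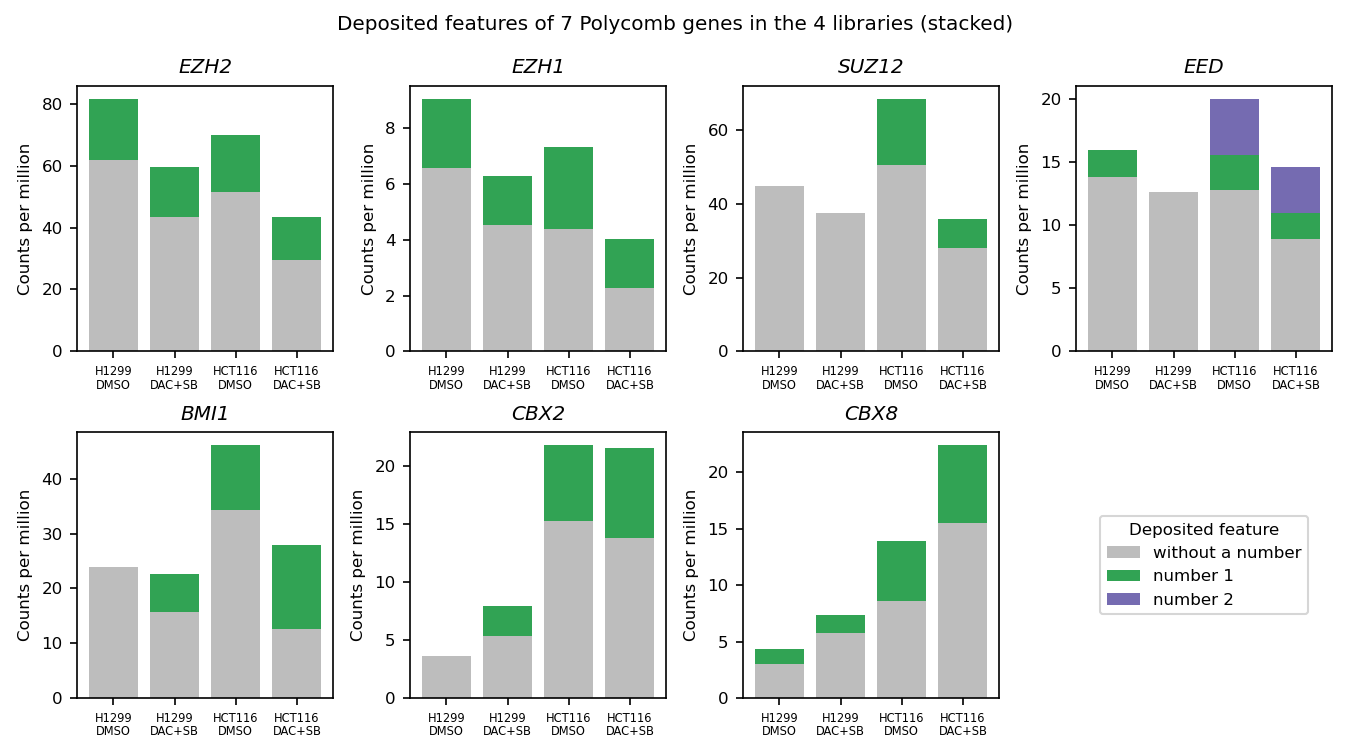
Stacked CPM (vertical axis) of the deposited features of the 7 genes that have a numbered feature, in the 4 libraries (horizontal axis), with the feature without a number in grey. Numbered features of SUZ12, EED, BMI1 and CBX2 are missing from 1 or both H1299 libraries, and in HCT116 the grey part of BMI1 went from 34.4 to 12.5 CPM.

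The CBX genes, whose proteins bring PRC1 to methylated chromatin, did not move one way. CBX7 had 740 counts with DMSO and 412 with DAC+SB in H1299, or 11.5 and 6.60 CPM, and 289 and 91 counts in HCT116, or 4.61 and 2.34 CPM. All 4 counting intervals of CBX7 were apart, and its log2 ratios were -0.80 (-0.97 to -0.62) and -0.98 (-1.34 to -0.64). CBX6 was 44.8 and 27.9 CPM in H1299 and 53.6 and 27.4 CPM in HCT116, DMSO first, with log2 ratios of -0.68 (-0.77 to -0.59) and -0.97 (-1.07 to -0.87). Its DMSO libraries differed, while its DAC+SB libraries overlapped within counting error. CBX8 went the other way, from 4.31 CPM (3.82 to 4.85) to 7.38 CPM (6.73 to 8.09) in H1299 and from 14.0 CPM (13.0 to 14.9) to 22.4 CPM (21.0 to 24.0) in HCT116. Its log2 ratios were 0.78 (0.56 to 1.00) and 0.68 (0.55 to 0.82), and both its features were higher with DAC+SB in both lines, although the interval of the numbered feature in H1299 included 0 (log2 ratio 0.28, -0.15 to 0.72).

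CBX2, which can compact chromatin, rose in H1299, with 232 and 495 counts. That was 3.60 CPM (3.15 to 4.09) and 7.93 CPM (7.25 to 8.66), giving a log2 ratio of 1.14 (0.91 to 1.37). Over features listed in both H1299 libraries this ratio was 0.58 (0.34 to 0.83), below 2-fold, because 159 of the counts with DAC+SB lay in a numbered feature not listed with DMSO. In HCT116 it was 21.8 CPM (20.7 to 23.0) with DMSO, and after treatment 21.6 CPM (20.1 to 23.1), a log2 ratio of -0.02 (-0.14 to 0.11) that was above 0 under 5 of the other settings, at most 0.23 with TMM factors. The log2 ratio of CBX2 was higher in H1299 than in HCT116 by 1.16 (0.90 to 1.42), and by 0.60 over features listed in both libraries of each line. CBX2 and CBX8 are neighbours on chromosome 17 (79778132 to 79787983, plus strand, and 79792132 to 79801683, minus strand, GENCODE v29 on GRCh38).

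The makeup of the 4 CBX genes by counts shifted accordingly. CBX6 made up 69.8% (68.4 to 71.2) of their summed counts in H1299 DMSO and 56.0% (54.3 to 57.8) with DAC+SB. The HCT116 shares were 57.0% (55.7 to 58.3) and 37.2% (35.4 to 39.0). CBX8 went from 6.71% to 14.8% in H1299 and from 14.8% to 30.4% in HCT116, and the CBX2 share likewise grew, from 5.60% to 15.9% and from 23.2% to 29.2%. That of CBX7 was 17.9% and 13.2% in H1299 and 4.91% and 3.17% in HCT116. Without numbered features the direction of each of these 8 shifts was the same, with CBX8 at 4.78% and 12.7% in H1299 and at 10.5% and 26.3% in HCT116. These shares are of counts, not of molecules per length of gene.

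**Figure D3:**
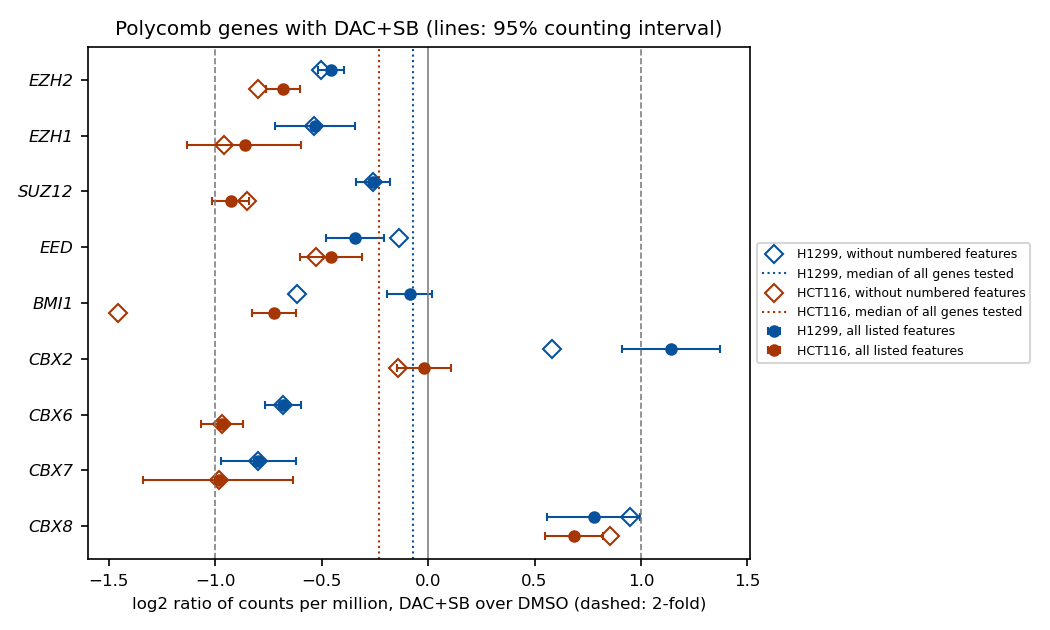
Log2 ratio of CPM, DAC+SB over DMSO (horizontal axis), of each gene in H1299 (blue) and HCT116 (brown), with filled points for all listed features, lines for the 95% counting interval and open diamonds for the value without numbered features. CBX8 lies above 0 in both lines, and the open diamonds of BMI1 (-0.62 and -1.46) and of CBX2 in H1299 (0.58) lie away from the filled points.

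The log2 treatment ratio was higher in H1299 than in HCT116 for all 9 genes at the library scaling, beside 59.4% of the 12644 genes tested in both lines. The median difference was 0.29 on the log2 scale for the 9 genes and 0.16 over all these genes. The difference was 0.23 (0.12 to 0.33) for EZH2, 0.29 (0.16 to 0.42) for CBX6, 0.64 (0.49 to 0.78) for BMI1 and 0.33 (0.01 to 0.65) for EZH1. For BMI1 it was 0.11 over features listed in both libraries of each line and 0.84 without numbered features. The intervals of EED (0.11, -0.08 to 0.31), CBX7 (0.18, -0.20 to 0.57) and CBX8 (0.09, -0.16 to 0.35) included 0, although that of EED was 0.32 over features listed in both libraries of each line and 0.39 without numbered features. With TMM factors the median over all genes was -0.02, and the ratio was higher in H1299 for 49.0% of them. The differences of the 9 genes were smaller than at the library scaling. They were 0.98 for CBX2, 0.49 for SUZ12, 0.46 for BMI1 and 0.15 for EZH1. CBX6 was 0.11, EZH2 0.05 and CBX7 0.003, and EED (-0.07) and CBX8 (-0.09) were slightly below 0.

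The lines also differed before treatment. Under DMSO, CBX7 was 2-fold or more higher in H1299, 1 of 9 where 20.5% of all genes were, with a log2 ratio of H1299 over HCT116 of 1.31 (1.12 to 1.51). CBX2 and CBX8 were at least 2-fold lower, 2 of 9 where 15.2% of all genes were, at -2.60 (-2.81 to -2.40) and -1.70 (-1.90 to -1.50). Between the DAC+SB libraries the same 3 genes passed 2-fold in the same directions. CBX7 was 2.82-fold higher in H1299 (log2 interval 1.17 to 1.84), beside 25.4% of all genes higher, and CBX2 and CBX8 were -1.44 (-1.61 to -1.28) and -1.60 (-1.77 to -1.44), beside 12.1% lower. These comparisons use the same libraries as the treatment ratios. Of the PRC2 genes, EZH2 and EZH1 were somewhat higher in H1299 DMSO (0.23 and 0.30) and SUZ12 and EED lower (-0.61 and -0.33). Without numbered features those of SUZ12 and EED were -0.17 and 0.11, and that of EZH1 was 0.58.

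Cells of each library were then divided by their counts of 20 S phase and, separately, 20 G2/M genes after thinning to 3300 counts per cell, since EZH2 is known to be made in dividing cells. Cells at or above the upper quartile (the upper group) were set against those at or below the lower quartile (the lower group). Many cells had tied counts, so a group held more than 25% of the cells, from 26.1% to 34.1% by G2/M counts and from 25.1% to 46.3% by S phase counts, and its extent differed between libraries. In H1299 DMSO EZH2 was 99.5 CPM in the upper group by G2/M counts and 58.1 CPM in the lower group, a log2 ratio of 0.78 (0.66 to 0.89). In H1299 DAC+SB it was 84.5 and 30.4 CPM, or 1.47 (1.34 to 1.61). In HCT116 the log2 ratio was 0.39 (0.28 to 0.50) with DMSO, from 79.6 and 60.7 CPM, and 0.79 (0.59 to 1.00) with DAC+SB, from 53.9 and 31.1 CPM. EZH2 was thus higher in cells with more G2/M counts in each library, and the ratio was larger with DAC+SB than with DMSO in both lines, beyond the counting intervals. The S phase list also differed more between these groups with DAC+SB, by a log2 ratio of 1.82 in H1299 and 1.07 in HCT116, than with DMSO, at 0.16 and -0.25. For mitochondrial genes the H1299 values were -0.37 (treated) and -0.10 (control), and those of HCT116 -0.11 and -0.13. The part of these lists in the EZH2 ratio was not tested. By S phase counts the EZH2 log2 ratios were 0.58 (0.47 to 0.69) for DMSO and 1.27 (1.14 to 1.41) for DAC+SB cells of H1299. Those of HCT116 were 0.24 (0.12 to 0.36) and 0.39 (0.23 to 0.55), with overlapping intervals. The lower group of HCT116 DAC+SB was the widest, at 46.3% of cells. EZH1 went the other way by G2/M counts in 3 libraries, at -0.50 (-0.80 to -0.20), -0.44 (-0.83 to -0.05) and -0.72 (-1.08 to -0.37), and was 0.16 (-0.47 to 0.80) in HCT116 DAC+SB. By S phase counts EZH1 was -0.54 (-0.84 to -0.24) in H1299 DMSO, while the intervals included 0 in H1299 DAC+SB (0.05, -0.34 to 0.45), HCT116 DMSO (-0.15, -0.52 to 0.21) and HCT116 DAC+SB (-0.01, -0.55 to 0.52). Cells of a library are not replicates, and the bounds of the groups differ between libraries.

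SUZ12 was higher in the upper G2/M group at 0.64 (0.49 to 0.80) and 0.71 (0.55 to 0.87) in H1299 and at 0.53 (0.31 to 0.75) in HCT116 DAC+SB, but at 0.09 (-0.03 to 0.20) in HCT116 DMSO. CBX7 was higher there in 3 libraries, at 0.49 (0.20 to 0.77), 0.64 (0.28 to 1.01) and 0.88 (0.44 to 1.34), and was 0.00 (-0.76 to 0.77) in HCT116 DAC+SB, where it had few counts. CBX6 differed between the lines, at -0.25 and -0.34 in H1299 and at 0.20 and 0.08 in HCT116. CBX8 lay between -0.02 and 0.07 in all 4 libraries, each interval including 0.

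**Figure D4:**
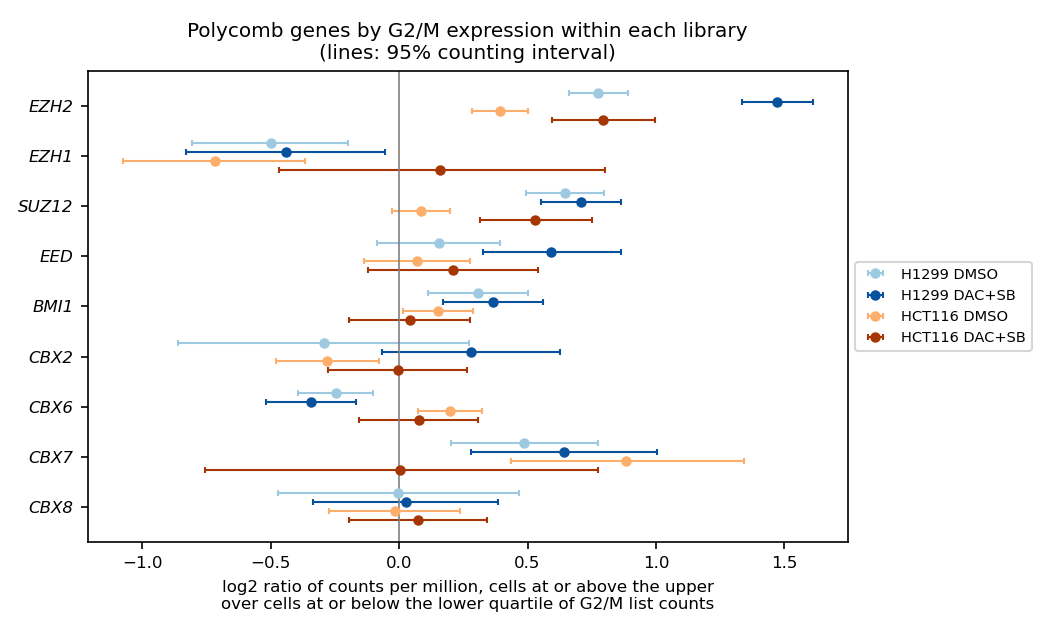
Log2 ratio of CPM in cells at or above the upper quartile of G2/M list counts over cells at or below the lower quartile (horizontal axis; 26.1% to 34.1% of cells in a group) for each gene in the 4 libraries, with lines for the 95% counting interval. EZH2 lies above 0 in all 4 libraries, from 0.39 to 1.47, and EZH1 below 0 in 3 of them.

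Both cell cycle lists were lower with DAC+SB. The S phase list summed to 1349 and 652 CPM in H1299 and to 1326 and 623 CPM in HCT116, and the G2/M list to 2617 and 1969 CPM and to 2315 and 1307 CPM, DMSO first. Of the 20 S phase genes, all tested, 10 fell by 2-fold in H1299 and 9 in HCT116, and none rose that much, with medians of -0.997 and -0.756. Of the 20 G2/M genes 0 and 9 fell and none rose, with medians of -0.52 and -0.93. Of all genes 7.34% in H1299 and 20.0% in HCT116 fell by 2-fold, and 18.3% and 16.2% rose. These shares include genes that reached 100 counts only with DAC+SB, while all 20 genes of each list reached it with DMSO. The treatment ratio was therefore also taken within bands of cells by their summed counts of both lists, with the same bounds in both libraries of a line, set at the quartiles of the DMSO library of each line (at most 7 and at least 17 of 3300 counts in H1299, at most 8 and at least 15 in HCT116). The lower band held 25.1% of H1299 DMSO cells and 53.9% of H1299 DAC+SB cells, and 29.5% and 72.4% of HCT116 cells. A band is a range, so cells in it can still differ in these counts between libraries.

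Within these bands the EZH2 log2 ratio in H1299 was -0.44 (-0.57 to -0.31) in the lower, -0.18 (-0.27 to -0.08) in the middle and -0.08 (-0.20 to 0.03) in the upper band, against -0.45 over all cells. In the upper band EZH2 was 104 CPM with DMSO and 98.1 CPM with DAC+SB, a difference within counting error. In HCT116 it was -0.44, -0.43 and -0.42 in the 3 bands, against -0.68 over all cells, with intervals all below 0. CBX6 was lower with DAC+SB in every band, at -0.69, -0.77 and -0.66 in H1299 against -0.68 over all cells, and at -0.83, -0.84 and -1.08 in HCT116 against -0.97. CBX8 also stayed higher with DAC+SB in every band, at 0.84, 0.90 and 0.46 in H1299 (the last -0.02 to 0.94) and at 0.78, 0.62 and 0.87 in HCT116. CBX2 in H1299 was 0.97, 1.27 and 1.28, EZH1 was -0.89, -0.40 and -0.76 in H1299 and -1.11, -0.59 and -1.28 in HCT116, and SUZ12 in HCT116 was -0.95, -0.61 and -0.73. In H1299 SUZ12 was nearer to 0 in each band than over all cells, at -0.083 (-0.24 to 0.08), -0.14 (-0.26 to -0.02) and -0.07 (-0.23 to 0.09) against -0.26. CBX7 in H1299 was -0.93, -0.35 (-0.64 to -0.08) and -0.83 against -0.80. Its intervals of -1.26 to -0.60 in the lower and -1.19 to -0.47 in the upper band overlapped that of the middle band. No interval was taken for the difference between bands. In HCT116 CBX7 was -0.49 (-1.03 to 0.06), -0.80 (-1.55 to -0.12) and -1.05 (-2.52 to 0.12) against -0.98 over all cells. BMI1 in H1299 was -0.21 (-0.40 to -0.02), 0.11 (-0.05 to 0.27) and 0.01 (-0.21 to 0.23), with a sign that differed between bands. The upper band of HCT116 DAC+SB held 202 cells, with 5 counts of EZH1 and 6 of CBX7. The EZH1 interval there was -2.93 to -0.02.

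Cells were also ordered by their share of transposable element counts. In H1299 DAC+SB, EZH2 was 43.4 CPM in the upper and 77.2 CPM in the lower quartile of cells, a log2 ratio of -0.83 (-0.97 to -0.69). CBX7 was 3.93 and 9.51 CPM, or -1.28 (-1.73 to -0.84), the largest difference of the 9 genes by this split in any library. In the same quartiles the G2/M list was 1165 and 2920 CPM, a log2 ratio of -1.33, and its part in these differences was not tested. In H1299 DMSO, EZH2 was -0.42 (-0.54 to -0.31) and CBX7 -0.81 (-1.14 to -0.49), beside a G2/M log2 ratio of -0.52. In HCT116 EZH2 did not differ beyond counting error between these quartiles, at 0.02 (-0.11 to 0.14) for DMSO cells and 0.01 (-0.19 to 0.20) for treated cells. There, with DAC+SB, BMI1 was 18.3 CPM in the upper and 34.4 CPM in the lower quartile, or -0.91 (-1.18 to -0.64), SUZ12 -0.49 (-0.72 to -0.26) and CBX6 -0.48 (-0.74 to -0.22). In DMSO cells of that line SUZ12 and CBX6 had the opposite direction, at 0.28 (0.15 to 0.41) and 0.16 (0.02 to 0.31), and EZH1 was 0.65 (0.24 to 1.07). CBX8 and EED were higher in the upper quartile of HCT116 DAC+SB cells, at 0.46 (0.19 to 0.73) and 0.43 (0.09 to 0.78). In H1299 DAC+SB cells EED had the opposite direction, at -0.60 (-0.90 to -0.30), and CBX8 was -0.13 (-0.51 to 0.25). The G2/M list in the HCT116 DAC+SB quartiles was 1075 and 1568 CPM, and mitochondrial genes 196897 and 166787 CPM. Median depth there was 7414 counts per cell in the upper and 9986.5 in the lower quartile, and this split was of all 4327 cells. The part of depth in these differences was not tested.

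The share of cells with a count was compared after thinning, which left out 402 HCT116 DAC+SB cells below 3300 counts and no other cell. An EZH2 count was found in 22.8% (21.4 to 24.2) of H1299 DMSO cells and 18.1% (16.9 to 19.4) of H1299 DAC+SB cells, and in 19.7% (18.4 to 21.0) and 13.4% (12.3 to 14.5) of HCT116 cells. Unthinned shares were 64.8%, 51.6%, 60.1% and 29.2%. CBX8 was found in 0.978% and 2.42% of H1299 cells and in 3.80% and 6.96% of HCT116 cells, DMSO first, and CBX7 in 3.88%, 2.31%, 1.48% and 0.637% of cells in the same order of libraries. Unthinned, these were 6.60%, 10.5%, 17.6% and 16.1% for CBX8 and 16.3%, 9.42%, 6.48% and 1.83% for CBX7. No cell type that should lack these genes was analysed, so the share due to free RNA was not measured.

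Of the 38 other Polycomb gene names read here, 36 were in the table, and 35 were tested in H1299 and 34 in HCT116. AUTS2 was below 100 counts in both lines and PHC1 in HCT116, so they were not tested there. AUTS2 was higher with DAC+SB, with 2 and 30 counts in H1299 (log2 ratio 3.95, 1.98 to 7.06) and 1 and 20 in HCT116 (5.01, 2.36 to 10.4), DMSO first. PHC1 in HCT116 had 81 and 39 counts (-0.37, -0.96 to 0.20). Of the 35 tested in H1299 5 fell by at least 2-fold, beside 7.34% of all genes, and none rose, beside 18.3%, with a median of -0.49. Of the 34 tested in HCT116 13 fell, beside 20.0%, and none rose, beside 16.2%, with a median of -0.77. All tested genes also reached 100 counts with DMSO. The shares of all genes include genes that reached it only with DAC+SB, so they are not matched to this list. Among the tested genes the largest change was in PHF19, which tethers PRC2 to chromatin through its Tudor domain. It had 19388 and 2790 counts in H1299 and 3529 and 221 in HCT116, or 300.5 and 44.7 CPM and 56.3 and 5.68 CPM. Its log2 ratios were -2.75 (-2.81 to -2.69) and -3.31 (-3.51 to -3.11), far below those of the PRC2 core genes. SCMH1, a PRC1 associate, fell in both lines (-1.35 and -2.15), as did PHC2, a Polyhomeotic subunit that joins PRC1 particles (-1.02 and -1.14), and L3MBTL2 of a variant PRC1 (-1.23 and -1.38). PCGF2, the closest relative of BMI1, was -0.60 in H1299 and fell in HCT116 (-2.20, from 23.8 to 5.19 CPM).

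RYBP, which replaces CBX proteins in variant PRC1, was 0.34 and 0.96. JARID2, which guides PRC2 to DNA, was 0.59 in H1299 and -0.12 in HCT116, BCORL1 was 0.48 and -0.57, and MGA of a variant PRC1 was -0.28 and 0.14. EPOP, a PRC2 accessory subunit, was 0.37 in H1299 and fell in HCT116 (-1.11), and SCML2, a PRC1 associate, was -0.66 and -0.03. Of 6 enzymes or partners that oppose Polycomb, such as the H3K27 demethylases KDM6A and KDM6B, 5 were tested and none reached 2-fold in either line, against the same shares of all genes, with medians of -0.27 and -0.44. ASXL3, which was not tested, was higher with DAC+SB. It had 7 and 68 counts in H1299 (3.33, 2.21 to 4.70) and 0 and 19 in HCT116, DMSO first. Of the 3 CBX genes of heterochromatin protein 1, which do not belong to Polycomb, CBX5 fell by 2-fold in both lines (-1.18 and -1.01). That was 1 of 3, beside 7.34% of all genes in H1299 and 20.0% in HCT116. CBX1 was lower by less, at -0.36 (-0.39 to -0.33) and -0.79 (-0.83 to -0.74). CBX3 was 0.09 (0.05 to 0.14) in H1299 and -0.66 (-0.71 to -0.61) in HCT116.

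**Figure D5:**
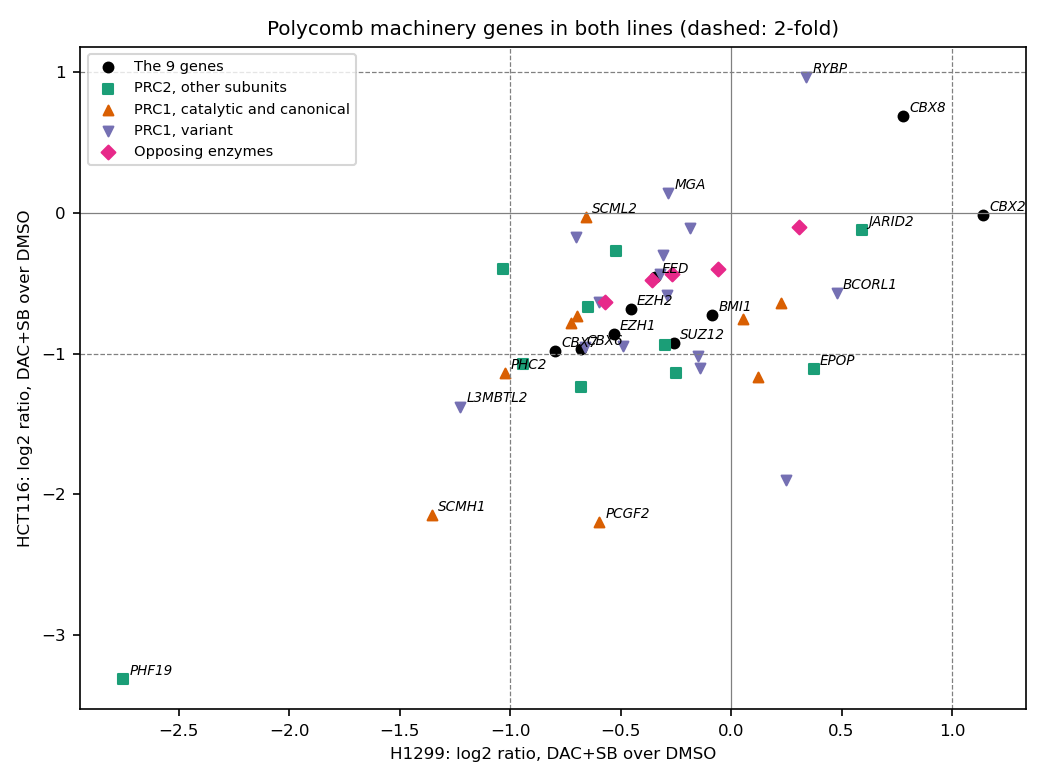
Log2 ratio of DAC+SB over DMSO in H1299 (horizontal axis) and HCT116 (vertical axis) for the 9 genes (black) and for other Polycomb and opposing genes tested in both lines, with dashed lines at 2-fold. PHF19 lies farthest down in both lines, and CBX8 and RYBP lie above 0 in both.

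Textbook Polycomb targets, 24 genes of development and cell cycle control, were read beside the machinery. In H1299 12 reached 100 counts in a library and in HCT116 10, and 6 in each line reached it with DMSO. With DMSO 6 of the 24 were at 0 in H1299 and 14 in HCT116. Genes that passed only through DAC+SB had to be higher, so the counts past 2-fold (7 higher and 1 lower in H1299, 5 and 1 in HCT116) are a description. Of the 6 that reached 100 counts with DMSO, 1 was 2-fold higher and 1 lower in each line, NKX2-5 (1.28) and CDKN2A in H1299 and PAX6 (2.19) and CDKN2A in HCT116. Of all genes 18.3% were higher and 7.34% lower by that much in H1299, and 16.2% and 20.0% in HCT116. These shares include genes that reached 100 counts only with DAC+SB, so they are not matched to the 6 targets. GATA4, a heart and gut factor, had 14 counts with DMSO and 194 with DAC+SB in H1299 (log2 ratio 3.84, 3.06 to 4.74). In HCT116 it had 0 and 583 counts, at least 313-fold higher if 0 is set to 3 counts and no unlisted feature had counts. SIM1 had 1 and 274 counts in H1299 (8.15, 5.66 to 13.45). In HCT116 HAND1 had 3 and 172 counts (6.53, 4.96 to 8.82), and NKX2-5 had 0 and 244, at least 131-fold higher. CCND2, a cyclin, had 22 and 412 counts in H1299 (4.27, 3.66 to 4.96). These values depend on numbered features too. Leaving out those not listed in both libraries of a line, the log2 ratios in H1299 were 2.87 for GATA4, 7.39 for SIM1 and 3.79 for CCND2. In HCT116 HAND1 was then 5.01, and the log2 lower bounds of GATA4 and NKX2-5 were 6.34 and 5.96, in place of 8.29 and 7.03 with all features. CDKN2A, the classical BMI1 target, fell in both lines, from 382 to 184 CPM (-1.06) and from 422 to 116 CPM (-1.86). GATA6 was -0.14 and 0.03. WT1 was -0.65 (-1.02 to -0.30) in H1299 and PAX2 -0.31 (-0.54 to -0.09) in HCT116. In the other line each was higher with DAC+SB but below 100 counts. PAX2 had 4 and 94 counts in H1299 (4.60, 3.20 to 6.51), and WT1 had 0 and 28 in HCT116.

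Over the 4 libraries the genes most like EZH2, among 10245 other genes with at least 100 counts in each, were LSM10, ATP2A2, ZFAS1, PPT2 and OGDH. Their distances of centred log2 CPM were 0.03 to 0.05. EZH1 ranked 174 of these genes, at a distance of 0.19, and CBX2 10019. For CBX7 the nearest of 10246 genes were ING5, SMC4, RFX5, CENPK and KMT2B, at 0.08 to 0.15. With 4 libraries many genes share an order of levels, so this likeness is a description.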

How the data were processed

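The data were taken as the authors deposited them, as whole-number counts per feature and cell in a gene table and in a transposable element table. The submitters' processing notes name CASAVA, STAR, GRCh38 and hg38. The counting tool, the annotation, the filter on cells and whether the counts are of unique molecular identifiers are not stated in the labels or files. Cells were assigned to libraries by the library name in the cell name. Features whose name before a number equals a gene were summed per library and divided by all gene and transposable element counts of that library (CPM). Names that join several genes were left out and added as an alternative. Ratios are of DAC+SB over DMSO, with a gene at 0 set to 3 counts. Levels have exact Poisson intervals, ratios exact conditional binomial intervals, shares exact Clopper-Pearson intervals, and differences between ratios normal intervals on the log scale, all at 95%. They cover counting error only. Where intervals overlap, the values can still differ beyond counting error. Differences between bands or groups of cells have no interval of their own. With 1 library per group nothing was tested, and called means at least 2-fold, in genes whose higher library had 100 counts or more. Doublets were not called, and the top 5% of cells by counts were left out in an alternative. Promoter windows and gene positions come from RefSeq and GENCODE v29 by symbol.

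The 9 genes and all lists were chosen with earlier results of these data known, and 2 listed genes are not reported here. Of the other Polycomb lists the text names genes changed 2-fold the same way in both lines and the 3 highest and 3 lowest per line. Of the targets it names genes from the 3 highest and 3 lowest per line. KDM6A and KDM6B are named as examples of their list, PAX6 to name a count, and COMMD3 and SUZ12P as a neighbour and a pseudogene, outside this rule. AUTS2, PHC1 and ASXL3 are named as untested genes, and CBX1 and CBX3 to complete their list, also outside it. Likeness is the Euclidean distance of log2 CPM centred over the 4 libraries. Cell values were also taken after a hypergeometric draw of 3300 counts per cell. The calculation of ratios was tested on simulated data. Python 3.11.15, pandas 2.3.3, numpy 2.4.6, scipy 1.17.1 and, for TMM factors only, edgeR 4.0.16 in R 4.3.3 were used.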

Additional observations from a re-analysis of the deposited data

Results flagged for a closer look

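A joined name of CBX7 and the clone RP4-742C19.9, whose counts were left out of the CBX7 sums, was higher with DAC+SB than with DMSO in H1299. It had 2 counts with DMSO and 11 with DAC+SB, a log2 ratio of 2.51 (0.31 to 5.72). In HCT116 it had 7 and 2 counts, a log2 ratio of -1.12 (-4.42 to 1.27). It is given here because it is a signal outside the summed features that exceeded the DMSO library.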

How the results depend on the processing

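No paired analysis was possible because each group was 1 library and the labels give no replicate numbers that pair libraries. A fit that takes the lines as replicates of the treatment was not made. The median log2 ratio of the 9 genes in H1299, -0.34, was -0.50 without numbered features, and -0.14 and -0.083 in the middle and upper bands of cells by cell cycle counts. In HCT116 the median of -0.72 was -0.48 with TMM factors, -0.85 both without numbered features and with those listed in all 4 libraries, and -0.49, -0.59 and -0.60 in the lower, middle and upper bands. The median difference between the lines, 0.29, was 0.11 with TMM factors, 0.44 as a mean over cells, 0.49 after thinning and 0.14 in the lower band. The cause of these moves was not tested. The bands and the settings without numbered features or with those listed in all 4 libraries were chosen after seeing the data. The 1 gene that rose by 2-fold in H1299, CBX2, was 0 at 4-fold, 0 with a minimum of 500 counts and 0 over features listed in both libraries. CBX8 in H1299, at 0.78 over all counts, passed 2-fold after thinning (log2 ratio 1.25, from 3.22 to 7.64 CPM). This thinned value rests on 35 H1299 DMSO cells with a CBX8 count. At 1.5-fold in H1299 2 genes rose and 2 fell, against 1 and 0 at 2-fold, and in HCT116 1 gene rose and 6 fell, against 0 and 0. In HCT116 no gene fell by 2-fold, but BMI1 passed it without numbered features or with those listed in all 4 libraries (-1.46). CBX6 passed it as a mean over cells and after thinning (both -1.07) and CBX7 after thinning (-1.34). In a band EZH1 (-1.11 lower, -1.28 upper), CBX6 (-1.08 upper) and CBX7 (-1.05 upper) passed it. The upper-band values of EZH1 and CBX7 rest on 5 and 6 DAC+SB counts, with intervals of -2.93 to -0.02 and -2.52 to 0.12. Apart from the bands, no alternative changed the sign of a gene's treatment ratio except for CBX2 in HCT116. It was above 0 under 5 settings, at most 0.23, and its lowest value was -0.14, without numbered features. With cells above the median set against the rest, in place of the groups beyond the quartiles, 19 of the differences by cell cycle or transposable element counts moved and 89 did not. Through ties this upper group by S phase counts held 33.7% of treated H1299 and 33.2% of treated HCT116 cells and was the same cells as before, so for these only the lower group differed. By G2/M counts EZH2 was then 0.51 and 0.95 in H1299 and 0.28 (0.19 to 0.36) and 0.50 (0.36 to 0.65) in HCT116, DMSO first, so the HCT116 intervals overlapped, and EZH1 in H1299 DMSO was -0.24, with an interval from -0.48 that reached 0. Depth limited CBX7 most, with 91 counts in HCT116 DAC+SB.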
